A study of Mus musculus with 10 samples.

Results

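The 8 genes described here code for scaffold, link and membrane proteins of the hair bundle, the mechanosensory organelle of inner ear hair cells (HCs): Ush1c, Ush1g, Whrn, Adgrv1, Pdzd7, Clrn1, Clrn2 and Ptprq. They were listed by symbol and not by a cutoff on measured values, although earlier results of these data were known when they were chosen. They are 8 of 32285 annotated genes, and were each followed through the cell classes of the cochlea and the vestibule. The series holds single-cell RNA-seq libraries of cochlear and vestibular tissue from wild-type CBA/J mice, a strain whose hearing and balance decline late in life, labelled as 22 months old. Per the study's methods, males and females were used, the whole organs of several mice were pooled for each library and dissociated with collagenase IV, and 3′ ends were counted as unique molecular identifiers (UMIs) with 10x Genomics chemistry. No genetic change or drug was applied, and the groups compared are set by organ and by cell class. Libraries also differ in depth and in their share of mitochondrial UMIs, and classes differ in depth. With young mice not analysed here, no effect of age can be read from these values.

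Usher proteins hold the hair bundle together. Harmonin (Ush1c) and SANS (Ush1g) are scaffolds that anchor the cadherin tip links through which sound and head movement open the transduction channels, and loss of either causes Usher syndrome type 1, a congenital deafness with balance loss and later blindness. Whirlin (Whrn), the very large adhesion receptor ADGRV1 and the PDZ protein PDZD7 help to build the ankle links that join the bases of growing stereocilia, and whirlin also works at stereocilia tips with myosin XVa. Clarin-1 (Clrn1) is the membrane protein lost in Usher syndrome type 3, clarin-2 (Clrn2) is its relative needed to maintain the bundle, and PTPRQ is a membrane phosphatase of the shaft connectors near the stereocilia base.

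On build GRCm38, Ush1c lies on chr7:46195350-46238503, Ush1g on chr11:115315192-115322041, Whrn on chr4:63414910-63495991, Adgrv1 on chr13:81095068-81633154, Pdzd7 on chr19:45026906-45045717, Clrn1 on chr3:58844028-58885340 and Ptprq on chr10:107517049-107720051, all on the minus strand. Clrn2 lies on chr5:45453751-45464149 on the plus strand. The genes differ widely in extent, from the 6.8 kb and 3 exons of Ush1g to the 538.1 kb and up to 90 exons of Adgrv1. Ush1g lies within Otop2 on the opposite strand, Pdzd7 overlaps the end of Lzts2 on the opposite strand, and a small unclassified transcript, Gm48566, lies on the same strand within Adgrv1. Since each UMI is read at a transcript's 3′ end, levels below are compared between cell classes for a gene and not between genes.

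Promoters are shown for 4 of the genes, chosen because Ush1c and Whrn were the members found outside HCs or unevenly among them, whereas most vestibular UMIs of Clrn1 and Pdzd7 lay in HCs. Each sequence runs from 250 bases before to 50 bases after the RefSeq start (GRCm38.p6), and capitals mark a CANNTG motif of the searched kinds, CAGCTG or CAGATG with its reverse complement CATCTG, letters that ATOH1 and other helix-loop-helix factors can bind.
Ush1c (chr7:46238441-46238740, minus strand): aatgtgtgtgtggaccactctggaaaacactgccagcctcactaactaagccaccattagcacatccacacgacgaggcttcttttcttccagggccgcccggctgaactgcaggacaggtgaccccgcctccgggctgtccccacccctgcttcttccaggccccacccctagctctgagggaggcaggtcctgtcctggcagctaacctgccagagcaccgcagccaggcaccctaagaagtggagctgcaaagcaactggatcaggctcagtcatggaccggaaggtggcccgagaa
Whrn (chr4:63495942-63496241, minus strand): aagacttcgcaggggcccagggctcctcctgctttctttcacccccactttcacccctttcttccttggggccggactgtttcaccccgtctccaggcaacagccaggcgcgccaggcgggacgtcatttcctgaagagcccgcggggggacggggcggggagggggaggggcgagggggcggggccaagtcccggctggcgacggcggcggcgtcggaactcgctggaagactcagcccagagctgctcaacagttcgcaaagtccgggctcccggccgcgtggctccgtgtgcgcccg
Clrn1 (chr3:58885163-58885462, minus strand): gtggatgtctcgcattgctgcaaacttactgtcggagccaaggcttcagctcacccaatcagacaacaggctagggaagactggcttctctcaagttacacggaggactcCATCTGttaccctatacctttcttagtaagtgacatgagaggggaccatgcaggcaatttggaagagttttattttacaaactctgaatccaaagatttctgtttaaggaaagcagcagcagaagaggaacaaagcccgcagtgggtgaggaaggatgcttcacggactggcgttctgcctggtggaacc
Pdzd7 (chr19:45045723-45046022, minus strand): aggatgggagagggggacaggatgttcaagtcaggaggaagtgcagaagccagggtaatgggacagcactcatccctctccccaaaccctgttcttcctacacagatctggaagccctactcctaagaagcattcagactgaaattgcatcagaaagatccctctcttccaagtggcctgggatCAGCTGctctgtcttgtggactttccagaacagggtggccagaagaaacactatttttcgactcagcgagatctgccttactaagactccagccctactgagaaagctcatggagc
The Clrn1 window held CATCTG at position -140 and the Pdzd7 window held CAGCTG at position -66 from the start, while the Ush1c and Whrn windows held neither. The window of Adgrv1, which is not shown, also held neither, although 71.7% of the vestibular UMIs of Adgrv1 lay in HCs. Over 32851 promoter windows of this length, 16.3% held CAGCTG and 17.2% held CAGATG or CATCTG on either strand, so these matches are a description of the letters only. The Whrn window was the richest in GC of those shown, at 70.0% with 29 CpG dinucleotides, beside a median of 52.7% over all windows.

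Replicates 1, 3, 4 and 5 of each organ were used. Replicate 2 shared 1313 of 1313 cochlear and 1633 of 1641 vestibular cell barcodes with replicate 1, and its counts differed from those of replicate 1 by less than sampling noise, so the pair was counted as 1 sample; other pairs of libraries shared at most 41 barcodes. The libraries kept 571 to 5070 cochlear and 867 to 5438 vestibular cells, with replicate 3 the largest in both organs, and median depths of 1889 to 3298 and 2102 to 2584 UMIs per cell. Nothing states that cochlear and vestibular libraries of the same number came from the same mice. Cells were clustered without the 8 genes and named from marker genes. This gave 73 inner hair cell-like cells (IHCs), 79 outer hair cell-like cells (OHCs), 1495 type I-like and 218 type II-like vestibular HCs and 59 vestibular HCs positive for Sox2 that were left untyped. Replicate 1 held only 2 IHCs, so IHC levels rest on replicates 3, 4 and 5. Clusters with HC markers and markers of another class, 70 cochlear and 506 vestibular cells, were set aside.

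Of the UMIs of each gene in the vestibule, typed and untyped HCs held 74.7% for Ptprq, 71.9% for Clrn2, 71.7% for Adgrv1, 70.2% for Pdzd7 and 68.8% for Clrn1, whereas they held 45.6% for Whrn and 38.5% for Ush1c and 20.4% of the UMIs of all genes. The HC clusters set aside held a further 32.6% for Ush1c and 21.6% for Whrn, beside 12.8% of the UMIs of all genes. Supporting cell-like cells held 19.5% of Ush1c UMIs, beside 5.27% of the UMIs of all genes. The first 5 genes were thus the more concentrated in HCs. In the cochlea, HCs held only 2.45% of all UMIs, HC clusters set aside 3.35%, supporting cell-like cells 18.9% and other cells 75.3%. Of the cochlear Ush1c UMIs, 18.9% lay in HCs, 20.8% in HC clusters set aside and 38.0% in supporting cell-like cells. Of the 42 cochlear UMIs of Pdzd7, 19.0% lay in HCs and 11.9% in HC clusters set aside. The other cells, neither HCs nor supporting cell-like, held 54.8% of them, below their 75.3% of all UMIs. All 80 cochlear UMIs of Clrn2 lay in HCs or in the HC clusters set aside. Each level below is in CPM, the UMIs of a gene summed over a class in a library and scaled to the same total for every class.

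**Figure D1:**
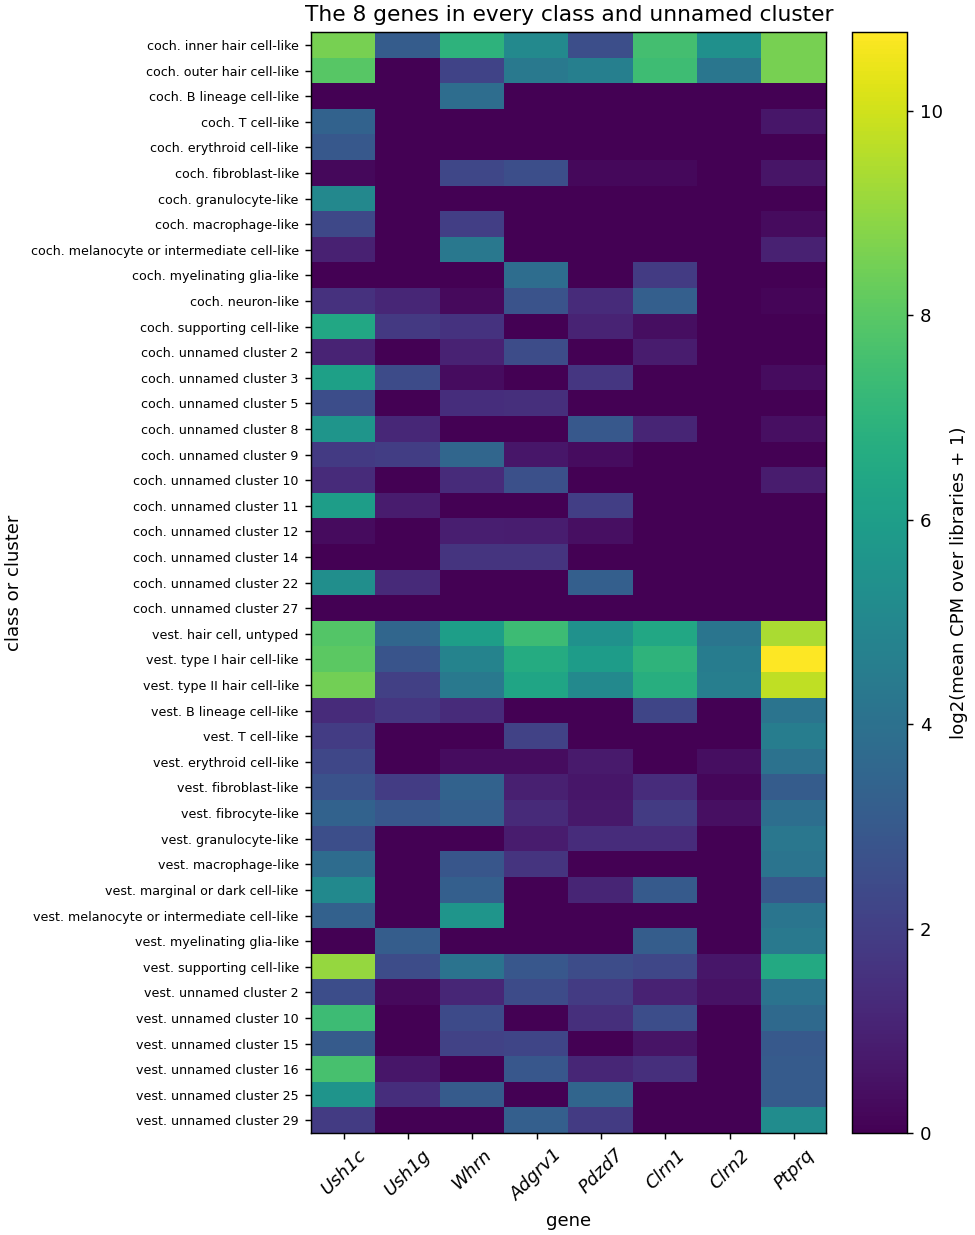
Mean level of each gene in every cell class of the cochlea and vestibule, as log2 of the mean CPM over libraries plus 1 (colour). Ptprq is highest in type I-like HCs (1744 CPM), and Ush1c is above 50 CPM in supporting cell-like cells of both organs as well as in HCs.

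The map of all classes shows the members detected in HC classes of both organs, except Ush1g, which had no UMI in OHCs, and Ush1c extending into other clusters. Outside HCs, 5 cochlear and 3 vestibular classes or clusters had Ush1c above the highest macrophage-like library, the class taken as background, in every one of their libraries. Besides the supporting cell-like cells, these were clusters without a name: in the vestibule 1 led by Apoa4, Hpse2 and Slc14a1 at 199 ± 96 CPM (SD, n = 4) and 1 led by Abca13 and Slc26a4 at 166 ± 57 CPM. By their mean alone, cochlear granulocyte-like cells also lay above that level, at 32.0 CPM, but from 1 UMI in all (4.61 CPM pooled). So did vestibular marginal or dark cell-like cells (34.0 CPM from 12 UMIs, against 21.7 CPM in the highest macrophage-like library) and an unnamed vestibular cluster (46.3 CPM from 22 UMIs). Each had at least 1 library below that level. Ptprq was listed above 0 in every vestibular class on the map, at 16.6 CPM in macrophage-like cells, and outside HCs only the vestibular supporting cell-like cells exceeded the highest macrophage-like library in every library.

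Differences between HC classes were tested on summed counts of each library with edgeR's quasi-likelihood test and Benjamini-Hochberg adjustment over all genes tested. Between cochlear and vestibular HCs, 7 of the 8 genes passed the filter on low counts and 6 of the 7 passed the threshold, 3 higher in each organ. Among all 7647 genes tested 31.1% passed, 13.0% higher in cochlear and 18.1% higher in vestibular HCs. Between type I-like and type II-like HCs, 2 of 7 passed, both higher in type I, beside 16.4% of 7625 genes in either direction, 7.63% in that direction and 8.81% in the other. Between IHCs and OHCs, only Ush1c, Clrn1 and Ptprq passed the filter. None of the 3 passed the threshold, beside 28.9% of 1466 genes, 14.3% higher in IHCs and 14.5% higher in OHCs. At an unadjusted p under 0.05 as well as after adjustment, 0 of 3 passed with edgeR, and 0 of 3 with DESeq2.

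**Figure D2:**
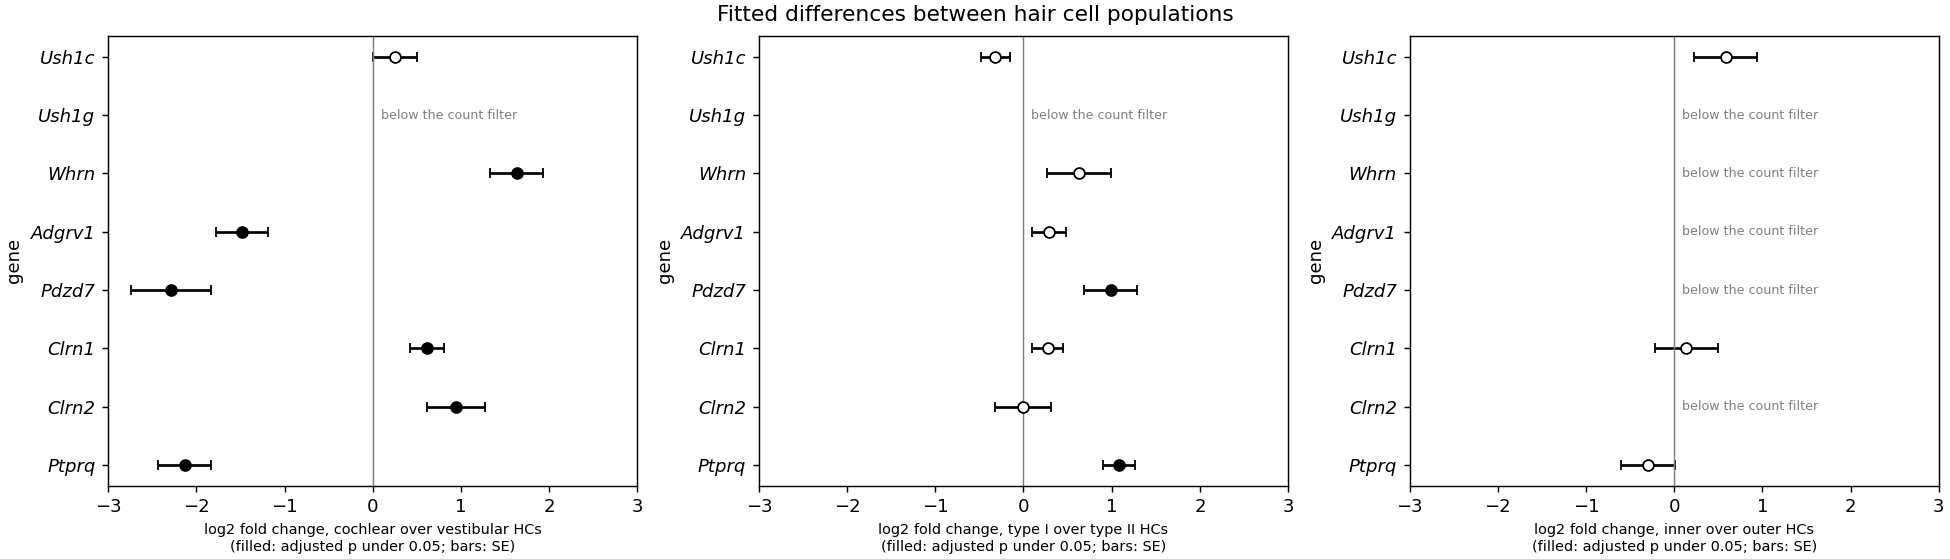
Log2 fold change of each tested gene (points) with its standard error (bars) between cochlear and vestibular HCs, type I-like and type II-like HCs, and IHCs and OHCs; filled points passed the threshold of 0.05 on the adjusted p. Ptprq lies at -2.13 between the organs and at 1.08 between the vestibular types, and Whrn at 1.63 between the organs.

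**Figure D3:**
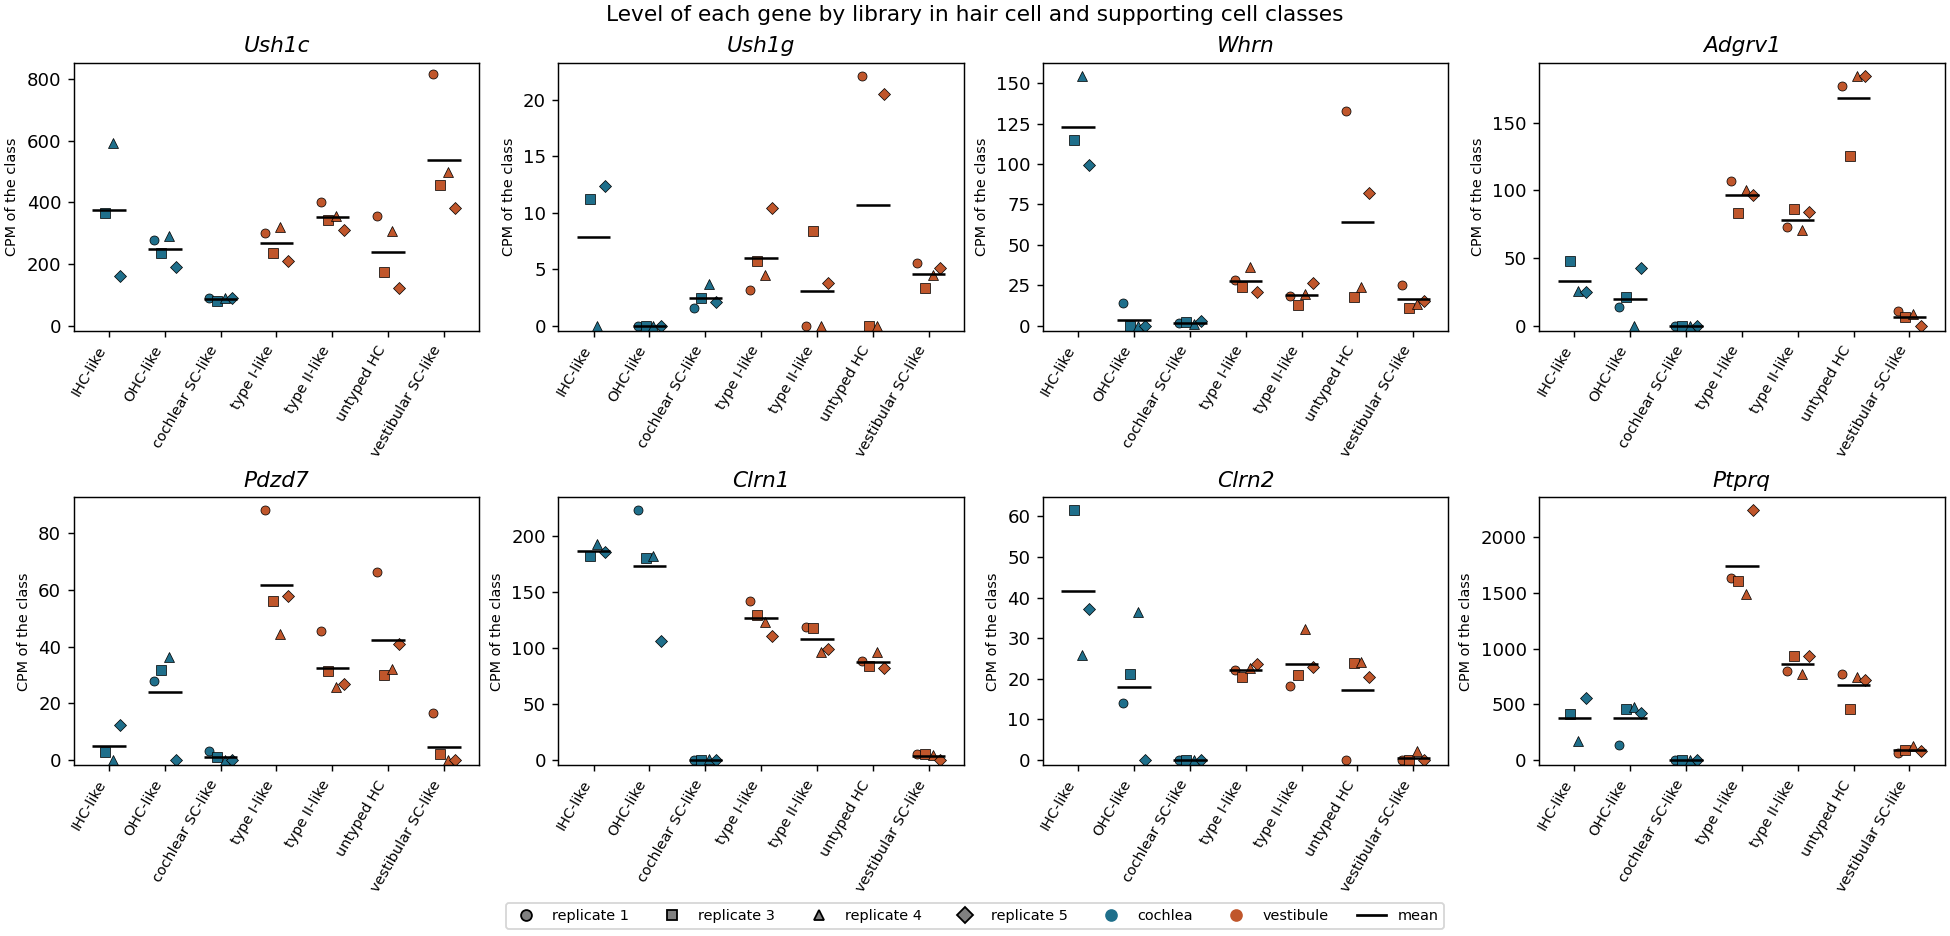
Level of each gene in each library (points, CPM) with the mean (bar) in IHCs, OHCs, type I-like, type II-like and untyped HCs and in supporting cell-like (SC-like) cells of both organs. Whrn is high in the 3 IHC libraries (99.1 to 155 CPM) and at 0 in 3 of 4 OHC libraries.

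The fold change plot gives each difference with its standard error, and the plot of levels by class shows the libraries behind it. The harmonin gene Ush1c was detected in every HC class. IHCs held 366, 593 and 161 CPM in replicates 3, 4 and 5, and OHCs held 279, 234, 292 and 191 CPM in replicates 1, 3, 4 and 5. Type I-like HCs held 301, 236, 320 and 211 CPM and type II-like HCs 402, 343, 354 and 309 CPM in the same replicates. The ranges of IHCs and OHCs overlapped, and those of the vestibular types met where type I-like HCs of replicate 4 (320 CPM) exceeded type II-like HCs of replicate 5 (309 CPM). Summed over all HCs of a library, cochlear HCs held 318 ± 148 CPM and vestibular HCs 278 ± 48.6 CPM (SD, n = 4 each), a log2 difference of 0.25 ± 0.25 (SE) that did not pass the test (adjusted p = 0.499, edgeR). IHCs exceeded OHCs by 0.59 ± 0.36 on the log2 scale (adjusted p = 0.232, edgeR). Type II-like HCs were the higher of the vestibular types in 4 of 4 libraries, with a log2 difference, type I minus type II, of -0.32 ± 0.16 (adjusted p = 0.216, edgeR); with the library as a block, which both types share, it was -0.36 (adjusted p = 0.0196), the lowest over the alternatives tried, which ranged up to 0.604.

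Ush1c was higher in vestibular supporting cell-like cells, the class that surrounds the HCs, than in the HCs themselves. The supporting cell-like cells held 814, 455, 496 and 381 CPM in replicates 1, 3, 4 and 5, beside 317, 247, 322 and 226 CPM in the HCs of the same libraries. The supporting cells were thus the higher in 4 of 4 libraries, at 191% ± 45.9 of the HC level, without overlap between the groups. Since the classes were formed from these cells, this is a description with no test. For genes that mark HCs the same ratio was low: 3.05% for Pou4f3, 3.56% for Tmc1, 4.50% for Kncn, 5.23% for Gfi1, 6.11% for Myo7a and 9.14% for Otof. All of these except Otof are also markers that named the vestibular HCs, so their low ratios follow in part from the naming. A Ush1c UMI was found in 63.8% of vestibular supporting cell-like cells at a median of 2149.5 UMIs and in 2.75% of macrophage-like cells at a median of 2925 UMIs, and after thinning every cell to 1000 UMIs the shares were 39.6% and 0.826%. Cochlear supporting cell-like cells held less, 89.1, 81.3, 88.6 and 90.9 CPM, which was 32.5% ± 15.6 of the cochlear HC level. Cochlear and vestibular supporting cell-like cells did not overlap in Ush1c, a difference that was not tested.

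**Figure D4:**
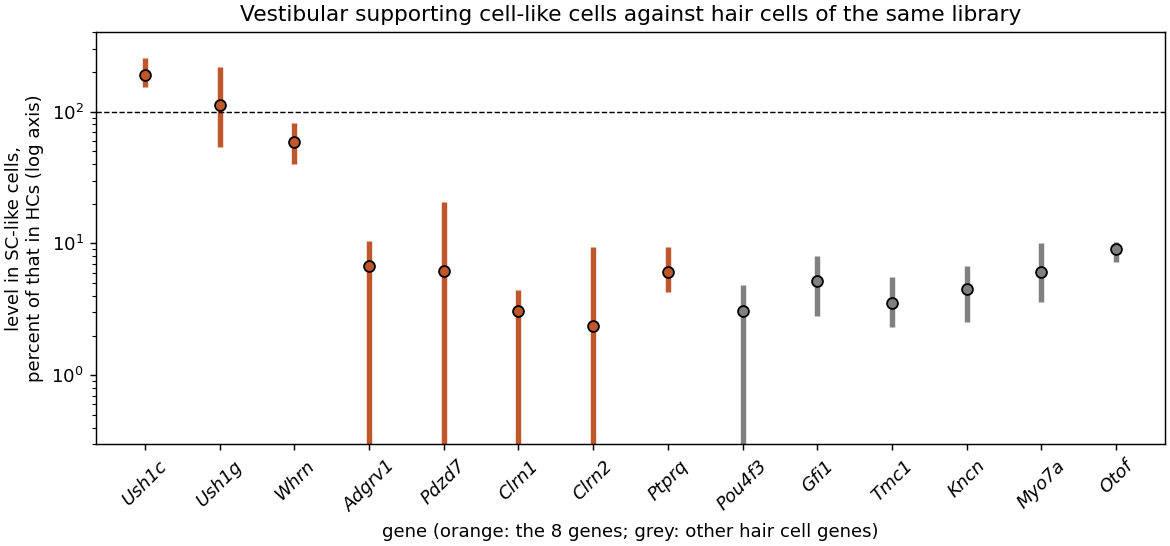
Level in supporting cell-like cells as a percentage of the level in HCs of the same library in the vestibule (log axis), as the mean (points) and range (bars, cut at the axis where a library is at 0) over 4 libraries for the members and 6 HC genes. Ush1c is the member with its whole range above 100%. The HC genes, all of which except Otof also named the HCs, average from 3.05% (Pou4f3) to 9.14% (Otof) in the vestibule.

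As the plot of supporting cells over HCs shows, Whrn lay between Ush1c and the HC genes in the vestibule, at 58.8% ± 18.3 of the HC level. Adgrv1 (6.70%), Pdzd7 (6.20%), Ptprq (6.04% ± 2.39), Clrn1 (3.05%) and Clrn2 (2.36%) were within the range of the HC genes or below it. In the cochlea, Whrn was at 3.62% and Clrn1 at 0.165%, and no UMI of Adgrv1, Clrn2 or Ptprq was found in supporting cell-like cells.

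Ush1g, the gene of the SANS scaffold, was close to the detection limit everywhere and could not be compared between classes. It gave 5 UMIs in IHCs, none in OHCs, 36 in type I-like and 5 in type II-like HCs, 15 in cochlear and 8 in vestibular supporting cell-like cells. The type I-like level was 6.0 ± 3.2 CPM (SD, n = 4). The 0 UMIs in OHCs allow a level of up to 12.5 CPM, and the 0 UMIs in macrophage-like cells allow up to 2.60 CPM in the cochlea and 1.88 CPM in the vestibule (3 counts). Such intervals and limits cover counting error only.

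Of the ankle link genes, Whrn was high in IHCs and at or near 0 in OHCs. In IHCs it was at 115, 155 and 99.1 CPM in replicates 3, 4 and 5, and in OHCs at 14.0, 0, 0 and 0 CPM in replicates 1, 3, 4 and 5. The OHC value of replicate 1 is a single UMI, and the classes did not overlap. With 3 libraries per class, 41.4% of the 1466 genes tested between IHCs and OHCs, which did not include Whrn, also had no overlap. Over all cells of the classes, 62 of 525260 UMIs in IHCs and 1 of 240240 in OHCs were from Whrn, a ratio of 28.4 (95% interval 4.90 to 1138 from counting error). The gene missed the filter on low counts in this comparison, and without the filter its adjusted p was 2.15e-06 (edgeR, IHCs higher in 3 of 3 libraries), the one alternative that tested it. A Whrn UMI was found in 43.8% of IHCs at a median of 5728 UMIs, in 1.27% of OHCs at 2671 UMIs and in 0.259% of cochlear macrophage-like cells at 2404 UMIs; thinned to 1000 UMIs these became 11.0%, 1.27% and 0. The depth of the classes therefore differed, but the order of the shares was the same after thinning.

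Cochlear HCs as a whole held 24.7, 90.8, 114 and 62.6 CPM of Whrn in replicates 1, 3, 4 and 5, and vestibular HCs 30.4, 22.4, 33.6 and 24.2 CPM. Replicate 1, with 24 OHCs and 2 IHCs, was the low cochlear library and overlapped the vestibular ones. The log2 difference was 1.63 ± 0.30 (adjusted p = 0.00015, edgeR). With cells limited to 10% mitochondrial UMIs it was 0.87 (adjusted p = 0.239, the highest of the alternatives tried). Fewer HCs of a kind and less RNA per cell cannot be told apart in such sums, and the part that the mix of IHCs and OHCs in a library has in the result was not tested. Type I-like HCs held 28.4, 24.2, 36.1 and 20.9 CPM, type II-like HCs 18.3, 12.6, 19.3 and 26.7 CPM and untyped HCs 133, 18.0, 24.1 and 82.2 CPM, ranges that overlapped (type I minus type II 0.63 on the log2 scale, adjusted p = 0.295, edgeR). Outside the sensory epithelium, vestibular melanocyte-like cells held 48.0 ± 40.4 CPM from 13 UMIs, the highest mean level of Whrn in a named class other than HCs. Pooled over libraries their level was 26.7 CPM, and their lowest library was at 9.28 CPM. The highest vestibular macrophage-like library held 21.7 CPM of Whrn, and no vestibular class, HC classes included, was above it in every library. That library, replicate 1, had only 11 macrophage-like cells with 46106 UMIs of all genes, so it sets a coarse limit. Over all libraries the macrophage-like cells gave 3 Whrn UMIs, 1.88 CPM pooled, beside 160 UMIs and 26.7 CPM pooled in type I-like HCs.

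Within the type I-like HCs, Whrn was uneven. The subclusters are called by number, and the 3 largest are compared first: subcluster 2 (269 cells) is led by Ocm, the calcium buffer oncomodulin that marks the central zones of the vestibular epithelia, subcluster 1 (365 cells) is led by S100a6, Fndc1 and Prox1 and subcluster 0 (572 cells) is nearly free of Ocm. In replicates 1, 3, 4 and 5, subcluster 1 held 97.2, 52.8, 76.5 and 70.5 CPM of Whrn. Subcluster 0 held 10.7, 8.72, 5.38 and 5.73 CPM and subcluster 2 held 15.3, 15.9, 4.35 and 12.3 CPM. Subcluster 1 was above both of these in 4 of 4 libraries, by 10.4 times the level of subcluster 0 on average (6.06 to 14.2). Subcluster 3 (233 cells at a median of 1563 UMIs) held 13.0, 18.1, 206 and 28.1 CPM from 11 UMIs in all, so that subcluster 1 was above it in 3 of 4 libraries and below it in replicate 4. Subcluster 7 (56 cells) could be measured in replicate 3 alone, at 19.6 CPM. Of the other members, the mean ratio of subcluster 1 to subcluster 0 was 0.894 for Ush1c, 0.736 for Adgrv1, 1.07 for Pdzd7, 0.727 for Clrn1, 1.02 for Clrn2 and 0.701 for Ptprq. Vestibular supporting cell-like cells, of which Prox1 is a marker, held 24.9, 11.1, 13.4 and 15.5 CPM of Whrn, below subcluster 1 in every library. Cells were clustered on other genes of the same libraries, so these values are given as a description with no test.

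**Figure D5:**
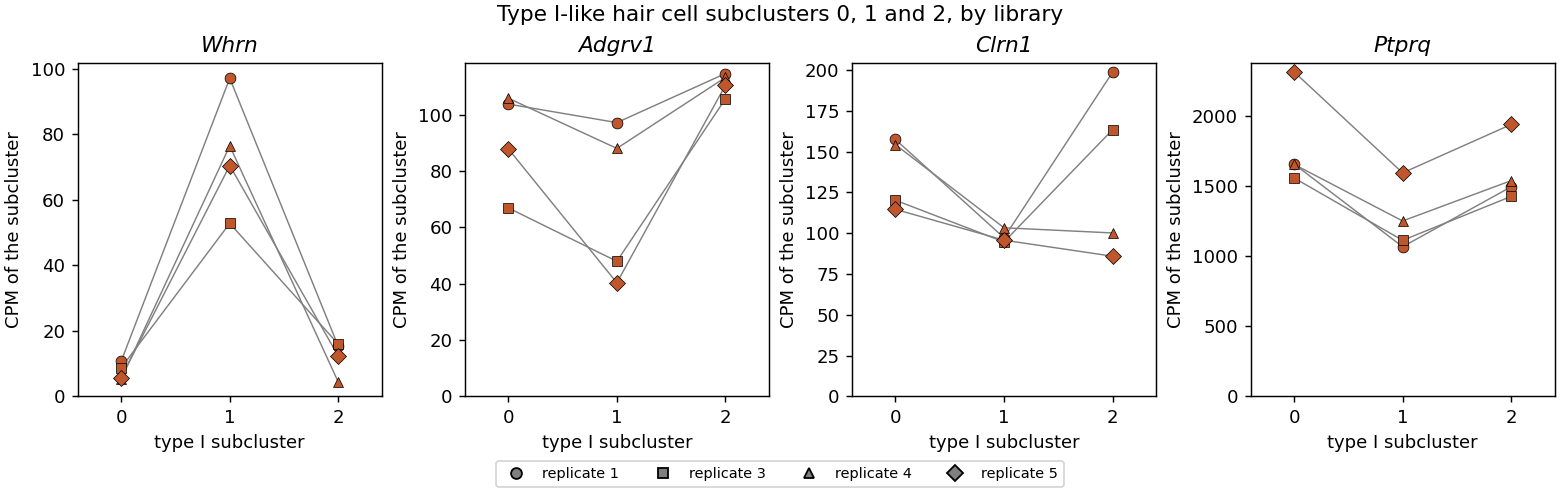
Level (CPM) of Whrn, Adgrv1, Clrn1 and Ptprq in type I-like subclusters 0, 1 and 2, with a point for each library and lines joining the points of a library. Whrn is at 52.8 to 97.2 CPM in subcluster 1 and at most 15.9 CPM in the other subclusters shown.

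In the plot of type I-like subclusters, Ptprq and Adgrv1 run the other way, with subcluster 1 below subclusters 0 and 2 in 4 of 4 libraries. Adgrv1, the receptor that forms the ankle link itself, was higher in vestibular than in cochlear HCs. Vestibular HCs held 106, 85.4, 104 and 97.4 CPM in replicates 1, 3, 4 and 5, and cochlear HCs held 12.3, 42.1, 19.0 and 31.3 CPM. The organs did not overlap, as held for 4 of the 7 members and 30.5% of all genes tested, and the log2 difference, cochlear minus vestibular, was -1.48 ± 0.29 (adjusted p = 0.000327, edgeR), lower in cochlear HCs under each alternative (highest adjusted p 0.0106). Type I-like HCs held 107, 83.0, 100 and 96.8 CPM and type II-like HCs 73.0, 86.2, 70.8 and 83.9 CPM, which overlapped (0.29 on the log2 scale, adjusted p = 0.428, edgeR). The untyped HCs were the highest class, at 177, 126, 185 and 185 CPM, above both types in each library. A UMI was found in 28.4% of type I-like HCs at a median of 3958 UMIs and in 0.551% of macrophage-like cells at 2925 UMIs.

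Pdzd7, the gene of the PDZ scaffold of the ankle link complex, was also higher in vestibular HCs as a whole. These held 81.1, 51.7, 41.6 and 51.3 CPM in replicates 1, 3, 4 and 5, whereas cochlear HCs held 24.7, 8.86, 9.52 and 7.82 CPM. The groups did not overlap, and the log2 difference was -2.29 ± 0.45 (adjusted p = 0.000366, edgeR), past the threshold under each alternative (highest adjusted p 0.0212). Type I-like HCs held 88.3, 56.1, 44.4 and 57.9 CPM and type II-like HCs 45.6, 31.5, 25.7 and 26.7 CPM. Type I-like HCs were the higher in 4 of 4 libraries although the ranges overlapped between 44.4 and 45.6 CPM, a fold of 1.98 (log2 0.99 ± 0.30, adjusted p = 0.0219, edgeR). The call was lost without replicate 3 (adjusted p = 0.122), without replicate 5 (0.0974) and with the stricter mitochondrial limit (0.0658), over a range of 0.00264 to 0.122 for the alternatives tried. In OHCs, Pdzd7 was at 27.9, 31.9, 36.5 and 0 CPM from 6 UMIs, and in IHCs it gave 2 UMIs.

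The clarin genes were shared by cochlear and vestibular HCs. Clrn1 was at 182, 193 and 186 CPM in IHCs of replicates 3, 4 and 5 and at 223, 181, 182 and 106 CPM in OHCs of replicates 1, 3, 4 and 5. In vestibular HCs it was at 142, 130, 123 and 111 CPM in type I-like and at 119, 118, 96.5 and 99.2 CPM in type II-like cells. The IHC and OHC ranges overlapped (log2 0.14 ± 0.35, adjusted p = 0.808, edgeR), as did those of the vestibular types (0.27, adjusted p = 0.366). All cochlear HC libraries, at 197, 182, 190 and 156 CPM, were above the vestibular ones, at 137, 126, 119 and 108 CPM, and the difference of 0.62 ± 0.19 on the log2 scale passed the test (adjusted p = 0.0166, edgeR). That call was lost under 7 of 17 alternatives: the adjusted p was 0.147 without replicate 3, 0.0992 without replicate 4 and 0.0665 without replicate 5, and up to 0.984 with the stricter mitochondrial limit (log2 0.01). No UMI of Clrn1 was found in macrophage-like cells of either organ, whereas 50.7% of IHCs, 44.3% of OHCs, 36.1% of type I-like and 33.5% of type II-like HCs held one, or 12.3%, 21.5%, 12.4% and 5.96% after thinning to 1000 UMIs, and no order is read from these shares. Outside HCs and the clusters set aside, cochlear Clrn1 was seen mainly in neuron-like cells, which gave 47 of 54 UMIs. The neuron-like level was 8.48 ± 7.85 CPM (SD, n = 4, 0 to 17.3 CPM), with a UMI in 14.4% of cells at a median of 8349 UMIs, or 2.34% after thinning. In the vestibule, cells outside HCs and the clusters set aside gave 48 UMIs, at a mean of 1.89 CPM.

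Clrn2 was low in every HC class and rarely seen elsewhere. IHCs held 61.5, 25.8 and 37.2 CPM, OHCs 14.0, 21.3, 36.5 and 0 CPM, type I-like HCs 22.1, 20.5, 22.6 and 23.7 CPM and type II-like HCs 18.3, 21.0, 32.2 and 22.9 CPM. The ranges of the vestibular types overlapped (log2 -0.01, adjusted p = 0.993, edgeR). Cochlear HCs held 24.7, 53.1, 28.6 and 23.5 CPM and vestibular HCs 20.3, 20.7, 23.6 and 23.4 CPM, ranges that overlapped, with a log2 difference of 0.94 ± 0.33 (adjusted p = 0.0329, edgeR). Replicate 3 was the high cochlear library: without it the difference was 0.17 (adjusted p = 0.889, the highest of the alternatives), and without replicate 4 the adjusted p was 0.0558. The call was lost under 6 of 15 alternatives.

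Ptprq was highest in type I-like HCs, and of the members it had the largest fold difference between the vestibular types. Type I-like HCs held 1633, 1606, 1492 and 2246 CPM in replicates 1, 3, 4 and 5 and type II-like HCs 803, 936, 772 and 931 CPM. The types did not overlap, as held for 1 of the 7 members and 18.7% of all genes tested, and type I-like HCs were 2.12 times the level of type II-like HCs (log2 1.08 ± 0.18, adjusted p = 6.11e-05, edgeR), a call kept under each of the 15 alternatives. Untyped HCs held 776, 461, 747 and 719 CPM, below type II-like HCs in each library. In the cochlea, IHCs held 411, 168 and 557 CPM and OHCs 140, 457, 474 and 424 CPM, which overlapped (log2 -0.30 ± 0.31, adjusted p = 0.514, edgeR). Cochlear HCs as a whole held 136, 421, 248 and 508 CPM, all below the vestibular 1468, 1465, 1365 and 1939 CPM (log2 -2.13 ± 0.30, adjusted p = 6.63e-06, edgeR; highest over the alternatives 0.000233). A Ptprq UMI was found in 96.9% of type I-like HCs, 80.7% of type II-like HCs, 13.6% of vestibular supporting cell-like cells and 3.31% of vestibular macrophage-like cells, and after thinning to 1000 UMIs in 78.4%, 59.2%, 6.25% and 1.38%.

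Partner genes of these proteins were counted by list, with the median log2 difference, cochlear minus vestibular, beside the -0.06 of all genes. Of 5 tested genes that code for other Usher and ankle link proteins, 3 were higher in cochlear HCs (median 0.995). Cib2, a calcium-binding partner of the transduction channel, stood at 2644 CPM in cochlear and 289 CPM in vestibular HCs (log2 3.22, adjusted p = 4.46e-10, edgeR), and the tip link gene Cdh23 followed (1.76, adjusted p = 2.41e-05). Myosin VIIa (Myo7a, -0.33, adjusted p = 0.292) and Pcdh15, the other tip link cadherin (0.33, adjusted p = 0.439), did not pass. Of 6 genes of the whirlin tip complex, 3 were higher in cochlear and 2 in vestibular HCs (median 0.14). The actin bundler Espn (-1.39, adjusted p = 4.03e-05) and Eps8 (-1.70, adjusted p = 8.7e-05) were higher in vestibular HCs and Eps8l2 in cochlear HCs (0.77, adjusted p = 0.00919), whereas Myo15, the myosin that carries whirlin, did not pass (-0.49, adjusted p = 0.173).

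Of 6 genes of the stereocilia taper and base, where PTPRQ sits, 2 were higher in cochlear HCs (Myo6, 0.72, adjusted p = 0.0197; Grxcr2, 0.84, adjusted p = 0.00168; edgeR) and none in vestibular HCs (median -0.05). Triobp (-0.46, adjusted p = 0.175) and Rdx (-0.31, adjusted p = 0.309) had values that did not pass. Of 5 genes of the transduction channel complex, 1 was higher in cochlear HCs (Lhfpl5, 1.34, adjusted p = 2.66e-05, edgeR) and 2 in vestibular HCs, among them Cib3 at 1520 against 13.3 CPM (-5.73, adjusted p = 1.66e-09). The intermicrovillar adhesion complex, a gut relative of the Usher complex, reached at most 0.633 CPM in HCs and could not be tested.

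Between the vestibular types the partners mostly did not pass. In the other Usher list Cib2 was higher in type II-like HCs (type I minus type II, log2 -1.67, adjusted p = 1.24e-08, edgeR). In the whirlin tip list 2 of 6 were higher in type I-like HCs, Espn (0.98, adjusted p = 0.000168) and Myo15 (0.85, adjusted p = 0.000746, edgeR). Of the taper and base list 0 of 6 passed with edgeR and 0 with DESeq2, and 2 had an unadjusted p under 0.05. Of 5 genes of the transduction list, Lhfpl5 was higher in type II-like HCs (-0.64, adjusted p = 0.00369, edgeR) and Tmc1, which is also among the markers that named HCs, was higher in type I-like HCs (0.68, adjusted p = 0.00603). Among IHCs and OHCs, Espn (log2 -1.34, adjusted p = 2.06e-05, edgeR) and Myo15 (-2.09, adjusted p = 6.78e-06) of 3 tested tip complex genes were lower in IHCs, whereas Whrn, their partner at the tips, was higher there. Of the taper and base list, 2 of 6 were lower in IHCs, Grxcr1 (-1.69, adjusted p = 0.000361) and Clic5 (-1.36, adjusted p = 0.00284), both named after their values were seen, and of 3 tested transduction genes Tmie (-2.47, adjusted p = 8.29e-06, edgeR) and Tmc1 (-1.40, adjusted p = 3.47e-05) were lower as well. In the other Usher list, 0 of 3 tested passed with edgeR or DESeq2, and 0 had an unadjusted p under 0.05.

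Genes with the pattern most like each member were ranked by Pearson's correlation of log2(CPM + 1) over 45 classes and clusters of both organs, which share libraries and depth. For this ranking the UMIs of a class were pooled over its libraries, so that larger libraries weigh more. Ptprq was most like Xirp2 (r = 0.973), Cib3 (0.945) and Loxhd1 (0.945), and Clrn2 most like Plscr5 (0.963) and Myl3 (0.959). Clrn1 followed with Mgat5b (0.936), Tomt (0.927) and Grxcr2 (0.922). Pdzd7 was most like 4931415C17Rik (0.835), Strc (0.830) and Ccdc68 (0.827), Adgrv1 most like Ap3b2, Elmod1 and Dnajc5b (each at least 0.817), and Ush1c most like Ccdc68 (0.863) and Ssx2ip (0.845). Whrn and Ush1g had no close match, with Gm20554 (0.715) and Klhdc9 (0.673) the nearest. Among the members themselves Clrn1 and Clrn2 were most alike (r = 0.895) and Ush1g and Adgrv1 least (0.308).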

How the data were processed

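Single-cell suspensions of cochlear and vestibular tissue were profiled in 10 libraries, 5 per organ. Per the labels, the authors aligned reads to mm10 and deposited UMI counts per gene and cell from Cell Ranger (6.1.2 in the submitters' processing notes, 5.0.1 in the file headers of replicates 1 and 2), as filtered matrices with no cell annotation. Replicates 1 and 2 were averaged cell by cell. Barcodes under 200 genes or 1000 UMIs, or over 25% mitochondrial UMIs, were dropped, and the rest were clustered in R 4.3.3 with Seurat 5.3.0 (2000 variable genes without the 8 members, 30 components, resolution 1; hair cell clusters again at 0.5) and named where 3 or more markers of 1 class were enriched; this naming rule was set after clusters had been seen. No doublet caller was run, and hair cell clusters with markers of another class were set aside. Libraries gave 2738036 to 26974948 UMIs in the cochlea and 4150642 to 24104850 in the vestibule.

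Counts were summed per class and library (5 or more cells) and tested with edgeR 4.0.16 (quasi-likelihood test, TMM, filterByExpr, Benjamini-Hochberg threshold 0.05), with DESeq2 1.42.0 as an alternative; scripts were tested on simulated data. Inner and outer hair cells were compared in 3 libraries each, the other classes in 4. Classes were formed from the same cells, so genes that named the hair cell types were not read in the tests between those types. The general hair cell markers Myo6, Myo7a and Tmc1 were read as partner genes, and their values are not independent of the naming. Comparisons of hair cells with other classes carry no test. Pooled mice are not separate animals, so p-values measure the spread between pools. The vestibular types share libraries, and their deviations from the group means correlated at 0.204, 0.140, 0.184 and 0.197 in replicates 1, 3, 4 and 5, so the library was tried as a block; for inner and outer hair cells, also from shared libraries, the values were 0.00499, 0.102 and 0.110 in replicates 3, 4 and 5. Alternatives covered normalization, tool, filter, depth, cluster resolution, mitochondrial limit, replicates left out and clustering with the members. The 8 members were all named, partner genes were named up to 4 per list by mean CPM in hair cells, and the 3 most similar genes were ranked among those reaching 10 CPM in a class. Members and lists were chosen with earlier results of these data known. Promoter sequences came from RefSeq tables (5 of 8 genes matched), and gene positions from a GRCm38 annotation. Some genes of these lists and rankings are not reported here.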

Additional observations from a re-analysis of the deposited data

Results flagged for a closer look

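In 60 groups of 4 libraries, the highest or lowest library was compared with the rest by its gap to the nearest, and 7 stood apart. Chance sets about 1 in 20 groups of independent, normally spread values apart. Here some groups share cells, and a gene with UMIs in a single library is always flagged, so the 7 cannot be set against that rate. Of the 7, 3 were in cochlear hair cells of replicate 1, which held 24 OHCs and 2 IHCs. In OHCs, Whrn was at 14.0 CPM in replicate 1, from 1 UMI, and at 0 in the others. Ptprq was at 140 CPM in OHCs of replicate 1 and at 424 to 474 CPM in the others. Pdzd7 in cochlear HCs was at 24.7 CPM in replicate 1 and at 7.82 to 9.52 CPM in the others. In untyped vestibular HCs, Adgrv1 was at 126 CPM in replicate 3, below the 177 to 185 CPM of the others, and Clrn2 was at 0 in replicate 1 beside 20.6 to 24.1 CPM. In vestibular supporting cell-like cells, Pdzd7 was at 16.6 CPM in replicate 1 and at 0 to 2.22 CPM in the others, and Clrn2 was at 2.23 CPM in replicate 4 and at 0 in the others.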

How the results depend on the processing

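The number of genes past the threshold moved with depth and cells. Between cochlear and vestibular HCs it was 2381, and 725 with cells thinned to 1000 UMIs, 1332 with a mitochondrial limit of 10%, and 1576 to 2842 with a replicate left out, lowest without replicate 3. Between the vestibular types it was 1254, with 393 after thinning and 741 to 1313 with a replicate left out, lowest without replicate 3. Between IHCs and OHCs it was 423, with 43 after thinning and 273 to 451 with a replicate left out, lowest without replicate 5. Thinning also cut the genes tested to 2594, 2434 and 213; other causes were not tested.

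With the replicate block the counts were 2280, 1677 and 461. In the block, Ush1c passed between the vestibular types (-0.36, adjusted p = 0.0196) and Clrn2 was lost between the organs (adjusted p = 0.102); no other call of a member changed. Cochlear and vestibular libraries share only a number: their deviations correlated at 0.0606, 0.0646, 0.101 and 0.0332 within replicates 1, 3, 4 and 5, and each cochlear library except replicate 5 correlated best with its own number.

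Some differences that missed the threshold changed sign. Ush1c between the organs was -0.58 after thinning, -0.025 with the mitochondrial limit of 10% and -0.10 with the set-aside clusters kept, an alternative chosen after seeing the data. Clrn2 between the types was 0.093 without the filter, 0.082 with replicate 1 alone, 0.13 at resolution 2, -0.058 to 0.11 with a replicate left out (highest without replicate 4) and 0.034 with untyped HCs counted as type II. Adgrv1 was -0.080 in that last setting, also chosen after seeing the data. Between IHCs and OHCs, Ptprq was 0.000459 without the filter and Clrn1 -0.013 to 0.38 with a replicate left out (lowest without replicate 5). Of the members' values in tests under alternatives, 220 kept their direction and side of the threshold, 17 lost their call and 1 gained it. Leaving out the IHC subcluster of low depth was likewise added after seeing the data. For IHCs and OHCs, the mitochondrial limit of 10% left fewer than 3 libraries with both classes and could not be fitted, and replicate 1 was not in the comparison.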
